A study of Mus musculus with 8 samples.

Results

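The 40 genes described here are cell cycle genes, chosen by symbol for their roles in S phase and mitosis, with the D-type G1 cyclins beside them. All 40 were found among the 23284 genes of the count table, and all 40 passed the filter on low counts that left 15698 genes for testing. They were sorted by role into 2 G1 cyclins, 15 genes of the G1/S step and of DNA replication, and 23 genes of the G2/M step and mitosis. The libraries came from choroid plexus of E18.5 mouse embryos, 2 per group in 4 groups. Telencephalic and hindbrain tissue was taken whole from embryos of strain CD1, or as sorted Ttr::RFP+ epithelial cells from embryos labelled ICR (CD1). The series' design text states that both regions were isolated from the same brains and that the replicates are biological. The sort selects cells in which a red fluorescent reporter linked to Ttr, the transthyretin gene, is on. Whether embryos were pooled is not given in the sources used here. Whole and sorted libraries came from different brains with differently written strain labels, so preparation, brain and label cannot be told apart.

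Dividing cells copy their DNA in S phase and part the copies in mitosis, and each step runs on its own set of transcripts. Replication genes are switched on near the G1/S border, largely by E2F factors, while mitotic genes peak in G2 and M under the MuvB, B-Myb and FoxM1 complexes. The choroid plexus epithelium largely leaves the cell cycle early and grows from a progenitor zone at its root, whereas its stroma and vessels go on growing before birth.

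Total counts ran from 8849053 to 31613434 per library. The members' counts ran from 5 (Ccne1, the gene of cyclin E1, in a telencephalic whole library) to 9543 (Ccnd2, the gene of cyclin D2). Levels are in CPM, counts scaled to a common library total with the TMM factors. CPM is not divided by transcript length, so values are compared between libraries and not between genes. Ttr, the marker of the epithelium, was abundant in all 8 libraries, at 139350.0 to 281816 CPM. The 2 hindbrain sorted libraries stood apart from each other more than any other pair of replicates, with a chi-square of counts per degree of freedom of 61.1 against 5.16 to 15.8, and with 158987 and 210675 CPM of Ttr. Without replicate 1 or 2 of that pair, 17 and 15 members were called between regions of sorted cells and 20 and 23 with the sort in the hindbrain, against 14 and 22 with both. In bulk libraries such as these, fewer dividing cells and less of a transcript per cell cannot be told apart.

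Mki67, which codes for the Ki-67 protein that coats mitotic chromosomes, stood at 70.8 and 89.0 CPM in the telencephalic whole libraries and 126 and 124 CPM in the hindbrain whole libraries. In sorted cells it stood at 11.5 and 18.54 CPM in the telencephalic and 33.7 and 41.9 CPM in the hindbrain libraries. The 4 groups did not overlap, and the order was hindbrain whole, telencephalic whole, hindbrain sorted, telencephalic sorted. Cenpf, a kinetochore and nuclear matrix protein of G2 and mitosis, had the same order, with 38.7 and 40.8 CPM in telencephalic whole, 61.4 and 55.1 in hindbrain whole, 11.8 and 17.3 in telencephalic sorted and 27.0 and 29.4 in hindbrain sorted libraries. Top2a, the topoisomerase that untangles sister chromatids, had 43.1 and 55.1 CPM in telencephalic whole, 72.5 and 61.9 in hindbrain whole, 9.11 and 17.9 in telencephalic sorted and 19.1 and 28.1 in hindbrain sorted libraries. Here too the groups did not overlap. In all, 16 of the 40 members kept this order with no overlap between neighbouring groups, 12 of them among the 23 mitotic members. The share of all genes with this order was not counted, so no background can be set beside the 16. Among the replication members the most deeply counted was Pcna, the sliding clamp of the DNA polymerases. It had 87.5 and 88.4 CPM in telencephalic whole, 114 and 132 in hindbrain whole, 69.9 and 55.8 in telencephalic sorted and 94.1 and 81.9 in hindbrain sorted libraries, so that the telencephalic whole and hindbrain sorted groups overlapped.

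**Figure D1:**
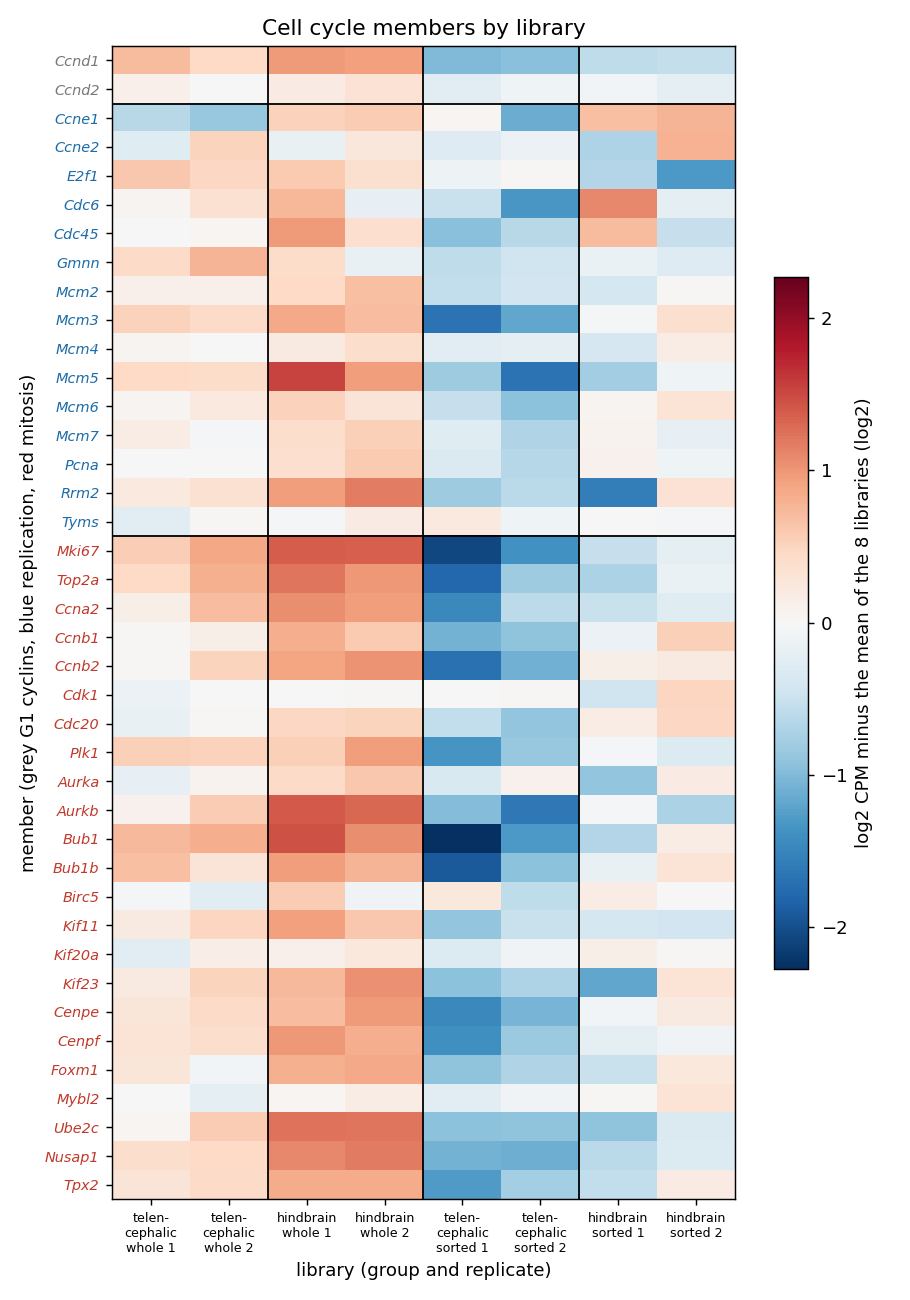
Each row is 1 of the 40 members and each column 1 of the 8 libraries; the colour is the log2 CPM minus the mean of that member over the 8 libraries (log2 units), with row names in grey for G1 cyclins, blue for replication and red for mitosis members. Most mitosis rows are highest in the hindbrain whole libraries and lowest in the telencephalic sorted libraries, while Tyms and Mybl2 have no such order, and Cdk1 is lowest in 1 hindbrain sorted library and highest in the other.

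The mean log2 CPM over the 23 mitotic members was 3.32 and 3.48 in the telencephalic whole, 3.93 and 3.90 in the hindbrain whole, 2.07 and 2.37 in the telencephalic sorted and 2.78 and 3.16 in the hindbrain sorted libraries. Over the 15 replication members it was 2.73 and 2.81 in telencephalic whole, 3.17 and 3.06 in hindbrain whole, 2.14 and 1.98 in telencephalic sorted and 2.49 and 2.62 in hindbrain sorted libraries. The mitotic mean thus spanned a wider range than the replication mean. The mitotic mean minus the replication mean was 0.59 and 0.67 in telencephalic whole, 0.76 and 0.84 in hindbrain whole, -0.076 and 0.39 in telencephalic sorted and 0.29 and 0.54 in hindbrain sorted libraries. The hindbrain whole libraries had the highest values of this difference, all 4 whole libraries lay above all 4 sorted ones, and the sorted groups overlapped. These means are descriptions of the chosen genes and carry no test.

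**Figure D2:**
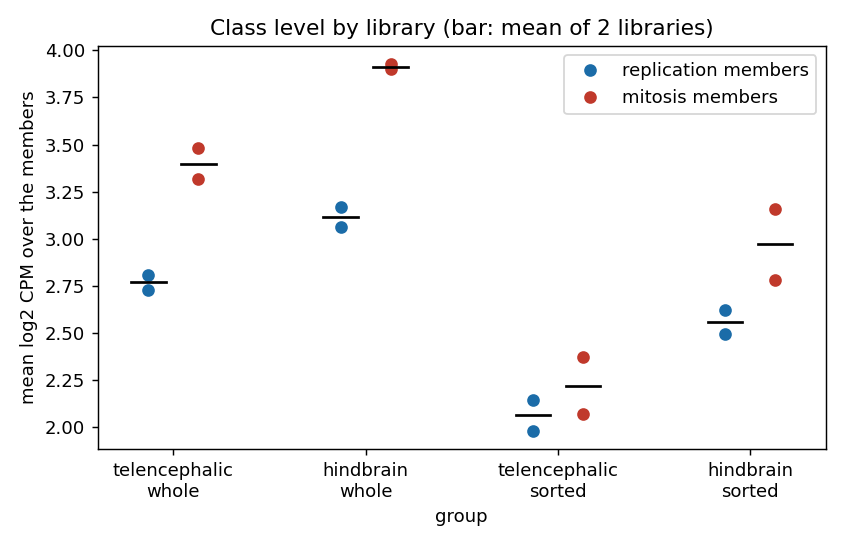
Points are libraries, 2 per group, the horizontal bars their means; the vertical axis is the mean log2 CPM over the 15 replication (blue) or 23 mitosis (red) members. The mitosis means range more widely over the groups than the replication means, and the telencephalic sorted libraries have the lowest values of both.

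The first comparison asked whether the whole choroid plexus differs between hindbrain and telencephalon in these genes. Of the 40 members, 37 had a positive log2 change, hindbrain minus telencephalic, against 50.6% of all genes tested, and 1 passed the test. A member is said to be called where its p from the quasi-likelihood test of edgeR, adjusted by Benjamini-Hochberg over all 15698 genes, is below 0.05. Ube2c, the ubiquitin-conjugating enzyme of the anaphase-promoting complex, rose from 9.91 and 14.4 CPM in telencephalic to 22.4 and 22.3 CPM in hindbrain libraries, a log2 change of 0.90 ± 0.23 (edgeR adjusted p = 0.0392; the value after ± is the SE of the fit, here and below). The groups did not overlap. With 1 member called higher of 40, against 3.34% of all genes tested, and 0 called lower, against 2.45%, the share of calls is near the background. The count stood at 16 members at an unadjusted p below 0.05, all of them higher in the hindbrain, and DESeq2 called 4. The share of all genes at that unadjusted p was not counted, here or below, and the share by DESeq2 is not given. No background can thus be set beside the 16 and the 4.

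Libraries of the 2 regions did not overlap, with the hindbrain higher, for 33 of the 40 members, against 26.8% of all genes tested, and with the hindbrain lower for 1, against 24.8%. The hindbrain library exceeded its telencephalic partner of the same replicate number in both pairs for 36 members, against 35.5% of all genes. All 23 mitotic members had positive log2 changes, between 0.078 and 1.01, with a median of 0.54. The 15 replication members had 12 positive and 3 negative changes, between -0.44 (Gmnn, the gene of geminin, which blocks relicensing of origins) and 1.27 (Ccne1, at 5 to 44 counts per library), with a median of 0.29. The median over all genes tested was 0.005. By adjusted p the next members were Nusap1, which bundles spindle microtubules, at 0.71 ± 0.20 (edgeR adjusted p = 0.0555), Pcna at 0.48 ± 0.14 (0.0620) and Mki67 at 0.65 ± 0.19 (0.0705). Aurkb, the kinase of the chromosomal passenger complex and a thinly counted member, stood at 3.67 and 5.14 CPM in telencephalic and 9.03 and 8.54 CPM in hindbrain libraries. Its log2 change of 1.01 ± 0.32 had an edgeR adjusted p of 0.103.

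With brain as a block, which uses the pairing of regions, 6 members were called in whole tissue, all higher in the hindbrain: Ube2c, Nusap1, Pcna, Mki67, Aurkb and Cenpf. Mki67 then had a log2 change of 0.65 ± 0.13 and an edgeR adjusted p of 0.00733. Member counts under this and the other alternatives are given without the share of all genes called in the same setting. A gain in called members here therefore cannot be told from a gain over all genes. The call of Ube2c was lost without any 1 of the 4 whole libraries (edgeR adjusted p of 0.457 and 0.0662 with telencephalic replicate 1 or 2 left out, 0.153 and 0.172 with hindbrain replicate 1 or 2 left out). It was also lost without telencephalic sorted replicate 1 (0.0600) or 2 (0.0597). Without hindbrain sorted replicate 1 or 2, 7 and 8 members were called.

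In sorted cells the same comparison asked whether the regions differ among reporter-positive cells. There, 13 of the 40 members rose in hindbrain cells, against 9.06% of all genes tested, and 1 fell, against 6.12%. The mitotic class, 23 of the 40 members, held 9 of the 13. The replication class, 15 of the 40, held 3 and the G1 cyclins 1. Mki67 was 2.55-fold higher, at 1.35 ± 0.20 (edgeR adjusted p = 0.000661). Cenpe, the kinetochore motor that carries chromosomes to the spindle equator, rose from 6.35 and 8.43 to 16.7 and 20.2 CPM, a change of 1.33 ± 0.19 (edgeR adjusted p = 0.000520).

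Ccnb2, the gene of cyclin B2, which drives entry into mitosis, rose from 1.63 and 2.48 to 5.82 and 6.09 CPM, a change of 1.56 ± 0.28 (edgeR adjusted p = 0.00248). Cenpf changed by 0.97 ± 0.17 (edgeR adjusted p = 0.00235). Among replication genes Mcm3, a subunit of the hexameric MCM helicase that unwinds DNA at the fork, rose from 1.97 and 2.79 to 6.18 and 8.15 CPM, a change of 1.61 ± 0.26 (edgeR adjusted p = 0.00110). In all 5 of these genes both hindbrain sorted libraries lay above both telencephalic ones. In each the call held under all 15 alternatives of filter, scale, test, block, left-out library and left-out Ttr and Rn45s.

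Each of the remaining 8 higher members lost its call without at least 1 library. Mcm6, another helicase subunit, changed by 0.90 ± 0.19 (edgeR adjusted p = 0.00606, or 0.0648 without telencephalic sorted replicate 2). Ccnb1, the gene of cyclin B1, changed by 1.24 ± 0.25 (edgeR adjusted p = 0.00558) and Bub1b, a spindle checkpoint kinase-like protein, by 1.47 ± 0.31 (0.00665). Both calls were lost without telencephalic sorted replicate 1 (0.0659 and 0.0877). Bub1, the checkpoint kinase itself, changed by 1.57 ± 0.37 (edgeR adjusted p = 0.0137), and its call was lost without that library (0.169) or without hindbrain sorted replicate 2 (0.0506). Cdc20, the activator of the anaphase-promoting complex, changed by 1.04 ± 0.26 (0.0191), and its call was lost without telencephalic sorted replicate 1 (0.0542) or 2 (0.106). Tpx2, a spindle assembly factor, changed by 0.89 ± 0.25 (0.0340), Pcna by 0.48 ± 0.14 (0.0326) and Ccnd1, the gene of cyclin D1, by 0.42 ± 0.12 (0.0311). The call of Tpx2 was lost without telencephalic sorted replicate 1 (edgeR adjusted p = 0.292), hindbrain sorted replicate 2 (0.170) or either telencephalic whole library (0.0628 and 0.0632). That of Pcna was lost without telencephalic sorted replicate 2 (0.248), hindbrain sorted replicate 1 (0.137) or either telencephalic whole library (0.0637 and 0.0640). That of Ccnd1 was lost whichever sorted library was left out (0.193 and 0.115 for telencephalic replicates 1 and 2, 0.0555 and 0.0586 for hindbrain replicates 1 and 2).

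E2f1, which codes for a transcription factor of the G1/S genes, was the 1 member called lower. It stood at 13.5 and 12.2 CPM in telencephalic whole and 13.3 and 11.3 CPM in hindbrain whole libraries, which overlapped. In sorted cells it fell from 8.05 and 8.87 CPM in telencephalic to 5.49 and 3.56 CPM in hindbrain libraries, with no overlap. The change was -0.90 ± 0.23 (edgeR adjusted p = 0.0215). The call was lost with library totals as the scale (0.0740) and without telencephalic sorted replicate 1 (0.0750) or 2 (0.0947) or hindbrain sorted replicate 2 (0.0647), and in a fit of the 4 sorted libraries alone (0.0926). In that fit the calls of Ccnd1 (0.0767), Pcna (0.0669), Cdc20 (0.0826), Bub1 (0.0794) and Tpx2 (0.119) were lost as well.

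The mitotic members had a median log2 change of 0.83, with 22 of 23 positive. The replication members had a median of 0.44, with 13 of 15 positive, and all genes tested had -0.0015, with 49.7% positive. The mitotic median was 0.50 without hindbrain sorted replicate 2 and 1.03 without replicate 1. Hindbrain and telencephalic sorted libraries did not overlap, with the hindbrain higher, for 19 mitotic and 10 replication members and 30 members in all, against 26.1% of all genes, and with the hindbrain lower for 1 (E2f1), against 25.8%. The hindbrain library exceeded its partner, the telencephalic library of the same replicate number, in both pairs for 30 members, against 32% of all genes. When the fit was restricted to the 4 sorted libraries, 8 members were called. Without telencephalic sorted replicate 1 it was 7.

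**Figure D3:**
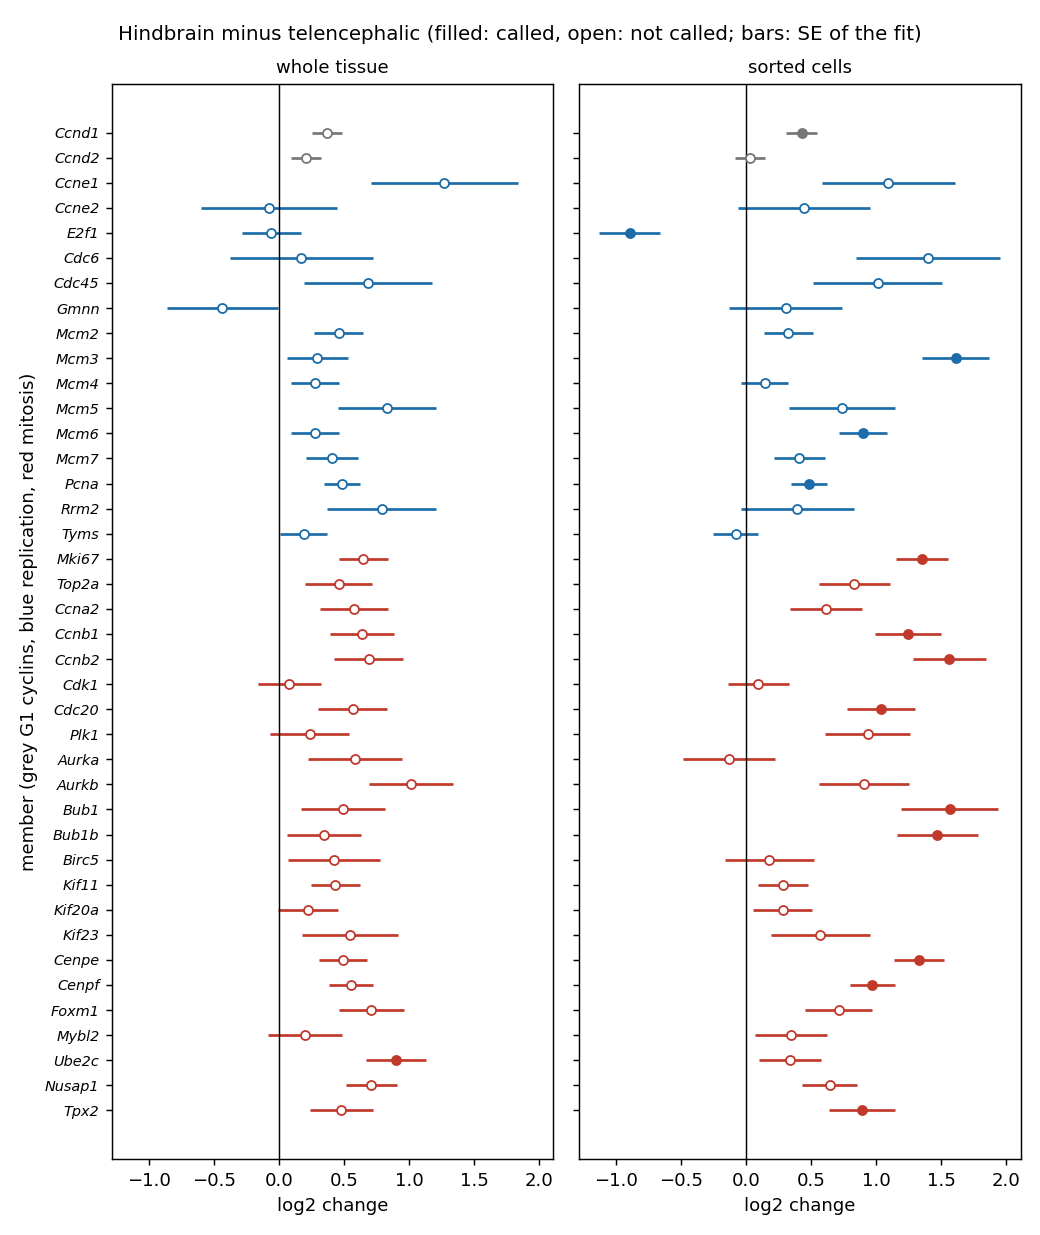
Points are log2 changes of the 40 members, hindbrain minus telencephalic, in whole tissue (left) and sorted cells (right), with bars of 1 SE of the fit; filled points were called and open points were not. In whole tissue all red (mitosis) points lie right of 0 and only Ube2c is filled, while in sorted cells 14 points are filled, with E2f1 as the filled point left of 0.

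The sequences upstream of the 5 members whose sorted-cell calls held are shown because the replication and mitotic classes are known to differ in promoter elements. They are the 100 bases before the RefSeq start of each gene (build GRCm38.p6, which is not the mm9 build of the counts), on the gene's strand from 5′ to 3′. Capitals mark matches on either strand to the cell cycle homology region (TTTGAA or TTCGAA), the CCAAT box or the E2F site (TTCGCGC in one form, TTGGCGC in another and TTCCCGC in the last).
Mki67: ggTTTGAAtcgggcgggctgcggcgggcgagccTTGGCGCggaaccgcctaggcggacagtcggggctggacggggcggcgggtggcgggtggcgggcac
Ccnb2: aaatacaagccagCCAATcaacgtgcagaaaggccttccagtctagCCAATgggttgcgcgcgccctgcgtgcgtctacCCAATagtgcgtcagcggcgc
Cenpe: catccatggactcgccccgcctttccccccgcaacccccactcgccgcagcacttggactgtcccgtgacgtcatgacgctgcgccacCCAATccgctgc
Cenpf: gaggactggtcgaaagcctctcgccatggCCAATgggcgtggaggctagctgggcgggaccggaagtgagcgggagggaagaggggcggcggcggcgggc
Mcm3: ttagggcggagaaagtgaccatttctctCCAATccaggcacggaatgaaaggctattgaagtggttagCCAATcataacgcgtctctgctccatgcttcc
Mki67 lies on chr7:135716380-135716479 (minus strand), Ccnb2 on chr9:70421555-70421654 (minus strand), Cenpe on chr3:135212463-135212562 (plus strand), Cenpf on chr1:189688087-189688186 (minus strand) and Mcm3 on chr1:20820313-20820412 (minus strand). The Ccnb2 window holds 3 CCAAT boxes, which begin at -87, -54 and -21 relative to the start. Mcm3 holds 2 of them, and Cenpe and Cenpf 1 each. Mki67 has a cell cycle homology match at -98 and an E2F match at -67. Ccnb2 and Cenpf also hold TTTGAA just past the start, from base 5 and base 3, and Mcm3 has E2F matches from bases 20, 40 and 43, outside the printed windows. Upstream of its window Mki67 holds CCAAT boxes, on either strand, from -188, -166 and -141, and TTTGAA from -116. Ccnb2 likewise holds TTTGAA from -167, and Cenpf and Mcm3 each hold a further CCAAT box, from -132 and -117.

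RefSeq promoters of 300 bases (250 before the start and 50 after) were found for 30 of the 40 members, 18 mitotic and 12 replication genes. A cell cycle homology match was in 13 of 18 mitotic promoters (72.2%) and 3 of 12 replication promoters (25.0%), and in 19.2% of all 32851 promoters. An E2F match was in 3 of 18 mitotic promoters (16.7%), 5 of 12 replication promoters (41.7%) and 8.07% of all promoters. CCAAT, which can share letters with TTGGCGC read on the other strand, was in 15 of 18 (83.3%), 8 of 12 (66.7%) and 37.4%. The promoters were not matched for base composition. A match is a string of letters and not a measured binding site.

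Transcripts of other cell types differed between the regions in the same sorted libraries. Of 10 macrophage markers all 10 were higher in hindbrain sorted cells, with a summed level of 198 and 164 CPM against 34.5 and 56.3 CPM in telencephalic sorted libraries. Of 10 mural markers, of pericytes and smooth muscle, 8 were higher and 0 lower, with sums of 296 and 265 against 76.7 and 69.8 CPM. Of 9 tested mesenchymal markers 7 were higher and 1 lower, with sums of 1779 and 1371 against 863 and 892 CPM. Of 10 endothelial markers 4 were higher and 1 lower, with sums of 161 and 162 against 117 and 126 CPM. None of the macrophage or mural markers was at 0 in any library, and among the rest Dpt (mesenchymal) and Erg (endothelial) were at 0 in at least 1 sorted library. In sorted cells 1 of 6 erythroid markers was called higher, 4 of 10 neural progenitor markers were higher and 2 lower, and 1 of 10 neuronal markers was higher and 1 lower. Choroid epithelial markers summed to 170501 and 222175 CPM in hindbrain against 292076 and 268007 CPM in telencephalic sorted libraries. That sum is mostly Ttr, at 158987 and 210675 against 281816 and 257038 CPM, so its direction follows 1 gene. Of the 12 markers 3 were called higher and 4 lower, and 3 had positive and 9 negative changes. Rn45s, the ribosomal RNA precursor, stood at 63038 and 121358 CPM in hindbrain and 166700.0 and 134006 CPM in telencephalic sorted libraries. In a fit without Ttr and Rn45s, 1 of the 15 alternatives, no member lost its call between regions of sorted cells. Beyond that fit, the part of these lists and of Rn45s in the regional difference of the cell cycle members was not tested.

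In whole tissue the marker lists were counted in the same way. Macrophage markers had 1 of 10 called higher, mural markers 0 of 10 by edgeR, at an unadjusted p below 0.05 (0) and by DESeq2 (0), mesenchymal markers 4 of 9 higher and endothelial markers 1 of 10 higher. Erythroid markers, of a lineage that divides in the embryo, had sums of 28.5 and 35.2 CPM in telencephalic and 67.4 and 62.8 CPM in hindbrain whole libraries. Neural progenitor markers had sums of 312 and 307 CPM in telencephalic and 459 and 439 CPM in hindbrain whole libraries. Of the erythroid markers 1 of 6 tested was called higher, of the neural progenitor markers 3 of 10 and of the neuronal markers 3 of 10, with none lower by edgeR or DESeq2. Neuronal markers had sums of 49.0 and 38.9 against 111 and 87.3 CPM, macrophage markers 138 and 156 against 183 and 184 CPM and mesenchymal markers 1123 and 1312 against 1513 and 1694 CPM, telencephalic values first. Those 3 sums and the erythroid, neural progenitor and endothelial sums were higher in both hindbrain whole libraries. Single genes were positive in 10 of 10 macrophage, 9 of 10 neuronal, 6 of 6 erythroid, 7 of 9 mesenchymal, 6 of 10 neural progenitor and 6 of 10 endothelial markers. The part of these lists in the members' higher levels there was not tested.

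The region effect was then compared between preparations by an interaction term. It was called for 0 of 40 members by edgeR, against 1.34% of all genes, and for 0 by DESeq2. At an unadjusted p below 0.05 there were 8, a count with no share of all genes to set beside it. The largest was that of Mcm3, whose change between regions was 0.29 ± 0.24 in whole tissue and 1.61 ± 0.26 in sorted cells, a difference of 1.32 ± 0.35 (edgeR adjusted p = 0.122). It was called with no low-count filter (edgeR adjusted p = 0.0469) and without hindbrain sorted replicate 1 (0.0416). Rrm2, the small subunit of ribonucleotide reductase, was called without hindbrain sorted replicate 2, in the other direction (-1.64, edgeR adjusted p = 0.0181). For Mki67 the difference was 0.70 ± 0.27, with a 95% interval of 0.11 to 1.30 (edgeR adjusted p = 0.415). The region effect of a member in sorted cells was therefore not shown to differ from that in whole tissue.

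Sorted and whole libraries were compared within each region, to see which cell cycle transcripts stayed with the reporter-positive cells. In the telencephalon 23 of 40 members fell in sorted cells, against 12.5% of all genes tested, and 0 rose, against 9.88%. In the hindbrain 22 fell, against 11.9%, and 0 rose, against 10.2%. Sorted and whole libraries did not overlap, with the sorted lower, for 32 members in the telencephalon, against 32.6% of all genes, and 29 in the hindbrain, against 29.9%. With the sorted higher it was 0, against 33.7%, and 1, against 29.8%. By DESeq2 the counts of calls were 23 and 21 lower and 0 higher in either region. No member had an unadjusted p below 0.05 in the upward direction. Without hindbrain sorted replicate 1, 1 of the 20 hindbrain calls was upward (Cdk1). Rn45s, the ribosomal RNA precursor, also moved with the sort, at 41252 and 40769.6 CPM in telencephalic whole against 166700.0 and 134006 CPM in telencephalic sorted libraries, and 36017 and 37128 CPM in hindbrain whole against 63038 and 121358 CPM in hindbrain sorted libraries. In a fit without Ttr and Rn45s, 1 of the 15 alternatives, no member lost its call with the sort in either region. Beyond that fit, the part of Rn45s in the members' drop was not tested. Members called lower in both regions numbered 19, and the share of all genes called lower in both was not counted. The 2 comparisons share no library, though the regions share brains.

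Mki67 fell 5.37-fold in telencephalic cells, at -2.42 ± 0.21 (edgeR adjusted p = 5.64e-06), and 3.30-fold in hindbrain cells, at -1.72 ± 0.19 (edgeR adjusted p = 7.12e-05). Ccnd1, whose product couples growth signals to the G1 kinases, stood at 143 and 119 CPM in telencephalic whole, 171 and 167 in hindbrain whole, 43.7 and 45.1 in telencephalic sorted and 58.7 and 60.4 in hindbrain sorted libraries. It fell in both regions, at -1.57 ± 0.12 (edgeR adjusted p = 2.55e-06) and -1.51 ± 0.12 (4.1e-06). Ccnd2, the other D-type cyclin, had 367 and 333 CPM in telencephalic whole, 385 and 422 in hindbrain whole, 284 and 314 in telencephalic sorted and 321 and 289 in hindbrain sorted libraries. It changed by -0.23 ± 0.11 (edgeR adjusted p = 0.179) in the telencephalon and fell by 0.40 ± 0.11 in the hindbrain (0.0255), a call lost without hindbrain whole replicate 2 (0.161) or hindbrain sorted replicate 2 (0.0904), or in a fit of the 4 hindbrain libraries alone (0.0728). The change of Ccnd2 was the smaller in both regions, and the difference between the 2 cyclins was not tested.

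Mitotic members, which are 23 of the 40, made up 17 of the 23 telencephalic calls and 15 of the 22 hindbrain calls. Their median log2 change was -1.39 in the telencephalon and -0.94 in the hindbrain. Nusap1 stood at 10.1 and 10.5 CPM in telencephalic whole, 16.2 and 17.3 in hindbrain whole, 3.63 and 3.54 in telencephalic sorted and 5.02 and 6.16 in hindbrain sorted libraries. It changed by -1.52 ± 0.21 in the telencephalon (edgeR adjusted p = 0.000318) and -1.58 ± 0.20 in the hindbrain (0.000161), and pairs of changes that follow are in that order. Top2a changed by -1.88 ± 0.28 (0.000460) and -1.51 ± 0.26 (0.00163), and Cenpf by -1.46 ± 0.18 (9.88e-05) and -1.05 ± 0.17 (0.000914), with edgeR adjusted p in parentheses.

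Kif11, the motor that pushes spindle poles apart, stood at 18.4 and 22.4 CPM in telencephalic whole, 30.4 and 24.4 in hindbrain whole, 8.58 and 11.2 in telencephalic sorted and 12.1 and 11.8 in hindbrain sorted libraries. It changed by -1.05 ± 0.19 (edgeR adjusted p = 0.00242) and -1.20 ± 0.19 (0.000798). Of the mitotic members, 5 (Mki67, Nusap1, Top2a, Cenpf and Kif11) kept their calls in both regions under all 15 alternatives, as did Ccnd1. Bub1 had the largest drop of the 40 members in the telencephalon, from 7.64 and 8.07 CPM to 0.945 and 1.86 CPM, a change of -2.54 ± 0.38 (edgeR adjusted p = 0.000514). In the hindbrain it went from 12.5 and 9.54 to 2.87 and 5.14 CPM, at -1.46 ± 0.32 (0.00743), which was lost without hindbrain whole replicate 1 (0.0647). Without telencephalic whole replicate 2 the telencephalic count of called members was 13, and without hindbrain whole replicate 1 or 2 the hindbrain count was 14 or 12.

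The remaining called mitotic members were lower as follows, with the telencephalic value first and edgeR adjusted p in parentheses. Cenpe changed by -1.61 ± 0.20 (0.000112) and -0.77 ± 0.18 (0.00995), Ccnb2 by -1.66 ± 0.29 (0.00162) and -0.79 ± 0.25 (0.0421) and Tpx2 by -1.39 ± 0.26 (0.00260) and -0.98 ± 0.24 (0.0127). Plk1, a kinase of mitotic entry and spindle assembly, changed by -1.64 ± 0.33 (0.00407) and -0.94 ± 0.30 (0.0407). The telencephalic calls of these 4 held under all 15 alternatives. Their hindbrain calls did not: without hindbrain whole replicate 2 the edgeR adjusted p was 0.0927, 0.202, 0.0583 and 0.284 in the order named. Tpx2, Ccnb2 and Plk1 were also lost without hindbrain whole replicate 1, Ccnb2 and Plk1 without either telencephalic whole library or without hindbrain sorted replicate 2, Ccnb2 without hindbrain sorted replicate 1, and Plk1 with DESeq2 and in the fit of 4 libraries.

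Ube2c changed by -1.25 ± 0.25 (0.00352) and -1.81 ± 0.23 (0.000193) and Aurkb by -1.57 ± 0.36 (0.00807) and -1.68 ± 0.32 (0.00305), again with edgeR adjusted p in parentheses. Their hindbrain calls held under all 15 alternatives. Both telencephalic calls were lost without telencephalic whole replicate 2 (0.0521 and 0.0761), and that of Aurkb without telencephalic sorted replicate 2 (0.0569). Foxm1, a transcription factor of G2/M genes, changed by -0.92 ± 0.26 (0.0264) and -0.92 ± 0.24 (0.0183), and Kif23, a motor of cytokinesis, by -1.18 ± 0.39 (0.0484) and -1.15 ± 0.36 (0.0397). In the telencephalon both calls were lost without any 1 of the 4 telencephalic libraries (edgeR adjusted p up to 0.225 and 0.222), and that of Kif23 also without either hindbrain whole library. In the hindbrain both were lost without hindbrain whole replicate 1 or 2 or hindbrain sorted replicate 1 (up to 0.0919 and 0.181), and that of Kif23 also without any 1 of the 4 telencephalic libraries or in the fit of 4 libraries. Bub1b and Ccnb1 were called in the telencephalon, at -1.90 ± 0.32 (edgeR adjusted p = 0.00115) and -1.08 ± 0.26 (0.0120), and changed by -0.77 ± 0.28 (0.0662) and -0.47 ± 0.24 (0.179) in the hindbrain. The telencephalic call of Ccnb1 was lost without telencephalic whole replicate 1 or 2 or telencephalic sorted replicate 1 (up to 0.0908).

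Of the 15 replication members 5 were called lower in each region, with medians of -0.61 in the telencephalon and -0.48 in the hindbrain. The medians over all genes tested were 0.015 and 0.0089. Within the MCM helicase some subunits were called and others were not. Mcm3 fell in telencephalic cells, from 9.11 and 8.60 to 1.97 and 2.79 CPM (-1.92 ± 0.26, edgeR adjusted p = 0.000279), and was not called in the hindbrain, at 11.5 and 10.2 CPM in whole and 6.18 and 8.15 CPM in sorted libraries (-0.60 ± 0.23, 0.0833). Mcm5 was called lower in both regions, at -1.57 ± 0.41 (0.0171) and -1.67 ± 0.37 (0.00781), on 13 to 186 counts per library. Its call was lost without telencephalic sorted replicate 2 (0.0986) in the telencephalon and without hindbrain whole replicate 1 (0.0909) in the hindbrain, and in the telencephalon also without either whole library (0.102 and 0.0722).

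Mcm2 changed by -0.61 ± 0.19 (0.0412) and -0.74 ± 0.18 (0.0132) and Pcna, the sliding clamp of DNA polymerase, by -0.48 ± 0.14 (0.0266) and -0.48 ± 0.14 (0.0238), with edgeR adjusted p in parentheses. In the telencephalon the call of Mcm2 was lost without any 1 of the telencephalic or whole libraries (up to 0.202), and that of Pcna without telencephalic whole replicate 1 or 2 or telencephalic sorted replicate 2 (up to 0.210). In the hindbrain Mcm2 was lost without hindbrain whole replicate 2 or hindbrain sorted replicate 1 (up to 0.112), and Pcna without hindbrain whole replicate 2 or hindbrain sorted replicate 2 or in the fit of 4 libraries (up to 0.173). Mcm6 was called in the telencephalon, at -0.85 ± 0.19 (edgeR adjusted p = 0.00768), which was lost without telencephalic whole replicate 2 or telencephalic sorted replicate 2 (up to 0.0692). Rrm2 was called in the hindbrain, at -1.39 ± 0.41 (edgeR adjusted p = 0.0313), which was lost without any 1 of the 4 whole libraries or in the fit of 4 libraries (up to 0.125).

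Mcm4 stood at 23.7 and 22.5 CPM in telencephalic whole, 26.2 and 29.8 in hindbrain whole, 19.2 and 19.4 in telencephalic sorted and 17.3 and 25.4 in hindbrain sorted libraries. Its changes were -0.26 ± 0.19 (edgeR adjusted p = 0.350) and -0.39 ± 0.18 (0.140). Mcm7 was at -0.53 ± 0.20 (0.0844) and -0.52 ± 0.19 (0.0713), also without a call. E2f1 was not called in telencephalic cells, at -0.60 ± 0.23 (edgeR adjusted p = 0.0799), and fell in hindbrain cells, at -1.44 ± 0.23 (0.000996), under all 15 alternatives.

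**Figure D4:**
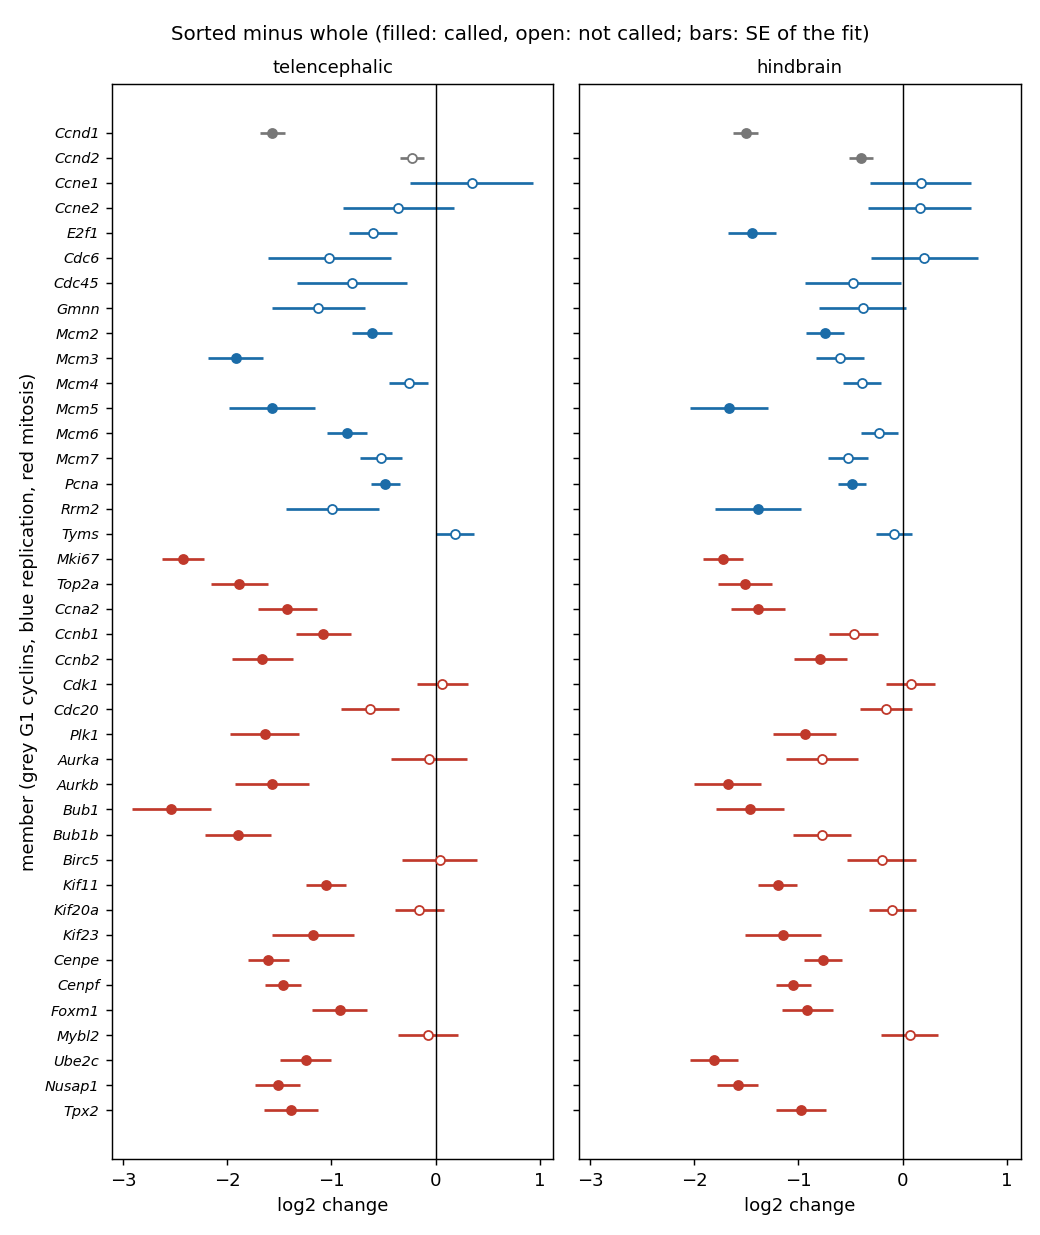
Points are log2 changes of the 40 members, sorted minus whole, in the telencephalon (left) and hindbrain (right), with bars of 1 SE of the fit; filled points were called and open points were not. Filled points all lie left of 0, most of them red (mitosis), and Cdk1, Mybl2, Birc5 and Kif20a stay near 0 in both panels.

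Some members were not called with the sort in either region. Cdk1, the kinase that cyclins A and B switch on, stood at 19.7 and 21.7 CPM in telencephalic whole, 21.7 and 21.9 in hindbrain whole, 21.5 and 21.8 in telencephalic sorted and 15.8 and 30.3 in hindbrain sorted libraries. Its log2 change with the sort was 0.067 ± 0.24 in the telencephalon (95% interval -0.46 to 0.59) and 0.079 ± 0.23 in the hindbrain (-0.43 to 0.59). Without hindbrain sorted replicate 1 the hindbrain change was 0.47 and was called higher (edgeR adjusted p = 0.0437). Its cyclin partner Ccna2 went from 10.6 and 15.6 to 3.48 and 6.39 CPM in the telencephalon (-1.42 ± 0.28, edgeR adjusted p = 0.00366) and from 20.0 and 18.7 to 6.80 and 7.96 CPM in the hindbrain (-1.39 ± 0.26, 0.00286). The telencephalic call of Ccna2 was lost without telencephalic whole replicate 2 (0.0524). Cdk1 thus stayed between its hindbrain sorted values in all 8 libraries, while the whole and sorted libraries of Ccna2 did not overlap in either region. The difference between them was not tested.

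Tyms, the thymidylate synthase that makes a DNA precursor, had 14.1 and 17.3 CPM in telencephalic whole, 16.5 and 19.2 in hindbrain whole, 19.6 and 15.8 in telencephalic sorted and 17.1 and 16.4 in hindbrain sorted libraries. These groups overlapped in each comparison. Kif20a, a kinesin of the central spindle, had 5.87 and 7.76 CPM in telencephalic whole, 7.54 and 8.21 in hindbrain whole, 5.60 and 6.57 in telencephalic sorted and 7.64 and 7.08 in hindbrain sorted libraries. Mybl2, the gene of B-Myb, ran between 3.25 and 4.81 CPM over the 8 libraries, and Birc5, the survivin gene, between 2.42 and 5.36. In all, 13 members were called in none of the comparisons. They were Ccne1, Ccne2, Cdc6, Cdc45, Gmnn, Mcm4, Mcm7 and Tyms of the replication class and Cdk1, Aurka, Birc5, Kif20a and Mybl2 of the mitotic class. The first 5 of these were counted thinly, with 5 to 24 counts in their lowest library and at most 83 in the highest.

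Some members could share reads with other genes. In the GENCODE M21 annotation 4 members (Pcna, Tyms, Ccnb1 and Ccnb2) have pseudogene copies named after them. A further 12 have exons that overlap those of another gene, among them Ube2c with Tnnc2, Cdc20 with Elovl1 and Mcm7 with Ap4m1 and Cops6, all on the opposite strand. The library kits do not mark strand, so the reads of such pairs cannot be told apart, and the levels of these genes are less certain.

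Markers of the other cell types moved with the sort as well. Endothelial markers fell in 10 of 10 cases in both regions, with median log2 changes of -4.31 and -3.50 and the summed levels were 616 and 649 CPM in whole against 117 and 126 CPM in sorted libraries of the telencephalon, and 651 and 703 against 161 and 162 CPM in the hindbrain. Mural markers fell in 9 of 10 cases in the telencephalon (median -2.42) and 5 of 10 in the hindbrain (-0.73). Macrophage markers fell in 8 of 10 cases in the telencephalon (-1.82) and 1 of 10 in the hindbrain (0.14). Of the mesenchymal markers 5 of 9 fell in the telencephalon (-0.76) and 1 of 9 in the hindbrain (-0.066), where 1 rose. Neuronal markers fell in 6 of 10 and 8 of 10 cases, neural progenitor markers in 4 of 10 and 6 of 10, and erythroid markers in 2 of 6 and 3 of 6, with 1 higher in the hindbrain. The globin genes Hba-a1 and Hbb-b1 were listed at 0 in all 8 libraries, and Neurod1, Neurod6, Olig2 and Gata1 at 0 in both telencephalic sorted libraries. The choroid epithelial markers rose in 7 of 12 and 5 of 12 cases, with 0 lower by edgeR or DESeq2 in either region. The part of these cell types in the members' drop was not tested.

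**Figure D5:**
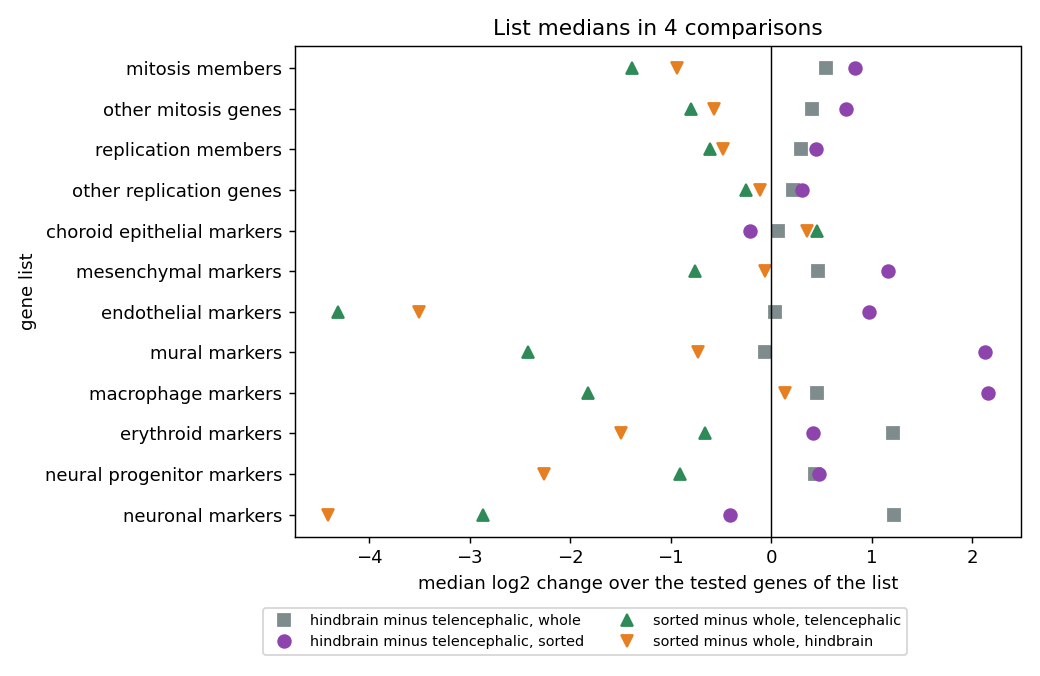
Each row is a gene list and each symbol the median log2 change of its tested genes in 1 of 4 comparisons (colour and shape). The medians of the mitosis and replication members are positive in both hindbrain minus telencephalic comparisons and negative in both sorted minus whole comparisons. In the sorted regional comparison the macrophage, mural, mesenchymal, endothelial, erythroid and neural progenitor medians are also positive. The choroid epithelial and neuronal medians are negative there.

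Other genes of the same pathway, on lists written by role, were tested in the same fit. Of 36 other mitosis genes 13 fell and 0 rose in telencephalic sorted cells, with a median of -0.80, and 9 fell and 0 rose in hindbrain sorted cells, with a median of -0.57. Of all genes tested 12.5% fell in the telencephalon and 11.9% in the hindbrain. Kif15, a spindle kinesin, changed by -1.44 ± 0.21 (edgeR adjusted p = 0.000381) and -0.96 ± 0.19 (0.00360). Pbk, a mitotic kinase, changed by -1.45 ± 0.28 (0.00324) and -1.62 ± 0.26 (0.000913). Of 36 other replication genes 6 fell and 0 rose in the telencephalon, and 3 fell and 1 rose in the hindbrain, counts near those shares of all genes. Clspn, the claspin gene of the fork checkpoint, fell in hindbrain cells, at -1.95 ± 0.35 (0.00206), and Slbp, which binds histone mRNA, rose there, at 0.56 ± 0.17 (0.0308).

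Between regions the same lists gave 9 of 36 other mitosis genes and 5 of 36 other replication genes higher in hindbrain sorted cells, against 9.06% of all genes tested, and 0 of either lower, against 6.12%. The medians were 0.75 and 0.30. Among them Smc4, a condensin subunit, changed by 0.90 ± 0.16 (edgeR adjusted p = 0.00218), Ndc80, of the kinetochore, by 1.44 ± 0.31 (0.00702) and Pola1, of the priming polymerase, by 0.64 ± 0.16 (0.0200). In whole tissue edgeR called 0 of either list, with 6 mitosis and 3 replication genes at an unadjusted p below 0.05, and DESeq2 called 1 and 0.

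The last list held genes that restrain the cycle. Of 17 tested inhibitors, pocket proteins and antiproliferative genes 4 rose and 2 fell in telencephalic sorted cells, against 9.88% and 12.5% of all genes tested. In hindbrain sorted cells 5 rose and 0 fell, against 10.2% and 11.9%. Between regions of sorted cells 5 of the 17 were called higher in the hindbrain, against 9.06% of all genes tested, and 0 lower, against 6.12%. Btg2, an antiproliferative gene that is also an early response gene, stood at 14.7 and 11.5 CPM in telencephalic whole, 12.9 and 9.54 in hindbrain whole, 42.1 and 39.8 in telencephalic sorted and 62.6 and 52.7 in hindbrain sorted libraries. It changed by 1.63 ± 0.18 (edgeR adjusted p = 5.41e-05) and 2.36 ± 0.18 (2.85e-06). Gadd45b, a stress-induced growth arrest gene, changed by 1.76 ± 0.55 (0.0375) and 3.02 ± 0.50 (0.00118), and its sorted hindbrain libraries differed widely, at 16.7 and 56.0 CPM.

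Cdkn2c, the inhibitor p18 of the G1 kinases, fell in telencephalic sorted cells, from 2.51 and 1.68 to 0.227 and 0.248 CPM (-3.14 ± 0.53, edgeR adjusted p = 0.00128). Cdkn1a, the inhibitor p21, was the 1 gene of this list called between regions in whole tissue. It stood at 75.5 and 90.6 CPM in telencephalic and 113 and 125 CPM in hindbrain libraries (0.52 ± 0.13, edgeR adjusted p = 0.0312). In sorted cells it was higher in the hindbrain as well, at 0.47 ± 0.13 (0.0258).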

How the data were processed

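RNA of 8 choroid plexus samples, 2 per group, was turned into amplified cDNA before library making, per the labels' protocols, and sequenced. The authors deposited raw read counts per gene symbol, 1 column per library. HTSeq, TopHat2 2.0.4, Bowtie2 2.0.5, CASAVA 1.8.2, DESeq 1 and the mm9 build are named in the submitters' processing notes, with no role or order. Gene annotation and strand setting were not given in the sources used here. Groups came from the sample labels.

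Genes were filtered by group (filterByExpr, minimum count 10, minimum total 15), scaled by TMM and tested in 1 fit of 4 group means over all 8 libraries with edgeR 4.0.16 (quasi-likelihood test, R 4.3.3). P-values were adjusted by Benjamini-Hochberg over all 15698 genes and called below 0.05. The SE is the log2 change divided by the root of F, and 95% intervals use the t quantile at the degrees of freedom of the test. Log2 CPM has a prior count of 2 (alternative 0.5). The fit was tested on simulated data with the same spread for every gene and changes in hindbrain whole tissue only. That run covered only the regional comparison of whole tissue, so it does not bear on the other comparisons. DESeq2 1.42.0, other scales, no filter, fewer libraries, blocks, leaving out Ttr and Rn45s and leaving out each library were alternatives.

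The regions share brains within a preparation, per the design text. Deviations of same-brain libraries from their group means correlated across all genes at 0.19 in whole and 0.14 in sorted libraries (genes are not independent replicates). Replicates differed by more than sampling noise, with chi-square per degree of freedom of 5.16 to 15.8 in 3 groups and 61.1 in hindbrain sorted cells. No library was counted as a duplicate.

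The 40 members, the gene lists and the tests were chosen with earlier results of these data known. By rule, changes are given for members called in the comparison described and for the most abundant of each class where fewer than 4 were called, and for up to 4 called genes per other list by adjusted p. Changes of members outside that rule in a comparison were chosen after their values were seen. Symbols in the lists were matched to the table by name, for 116 of 117 other cell cycle genes and 83 of 84 markers, with 3 under older symbols.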

Additional observations from a re-analysis of the deposited data

Results flagged for a closer look

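None of the 40 members was called for a difference in region effect between sorted cells and whole tissue by edgeR's interaction test, with 0 by DESeq2. At an unadjusted p below 0.05 there were 8, with no share of all genes counted at that p. Among the marker genes 11 were called by edgeR. The values are the region effect in sorted cells minus that in whole tissue, in log2 units, with the SE of the fit. The mural markers Rgs5, Kcnj8, Abcc9, Pdgfrb and Cspg4 differed by 3.28 ± 0.34, 3.07 ± 0.45, 2.25 ± 0.21, 1.97 ± 0.19 and 1.38 ± 0.26 (edgeR adjusted p = 0.00101, 0.00492, 0.000815, 0.000815 and 0.0199). The endothelial markers Emcn and Cdh5 differed by 2.05 ± 0.20 and 1.61 ± 0.18 (0.000815 and 0.00179). The macrophage markers C1qc and C1qb differed by 2.28 ± 0.31 and 1.97 ± 0.24 (0.00324 and 0.00216), and the mesenchymal marker Col3a1 by 1.47 ± 0.28 (0.0199). Pax6, a neural progenitor marker, differed in the other direction, by -3.37 ± 0.70 (0.0358), with 3.30 and 3.88 CPM in telencephalic whole, 10.6 and 2.88 in hindbrain whole, 5.03 and 4.16 in telencephalic sorted and 0.800 and 0.881 in hindbrain sorted libraries.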

How the results depend on the processing

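The 1 call among members between regions of whole tissue became 3 with library totals as the scale, 4 with DESeq2, 6 with no low-count filter, 10 in a fit of the 4 whole libraries alone and 6 with the replicate block of brain. It ran from 0 to 8 when 1 library was left out. All of these calls were higher in the hindbrain. The 14 calls in sorted cells became 8 in a fit of the 4 sorted libraries alone, and 7 to 17 with 1 library left out. The replicate block gave 15. With the sort, 23 members called in the telencephalon became 13 to 25 and 22 in the hindbrain 12 to 23 with 1 library left out. A block of the shared replicate number, which there marks different brains, gave 23 and 22. The 0 interaction calls became 1 with no low-count filter, 0 to 1 with 1 library left out, and 0 with the replicate block.

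Of the 60 calls of single members 28 held under every alternative, and none changed direction under any. The mitotic minus replication mean stayed positive in every group except telencephalic sorted, where it was 0.16 over both libraries and -0.076 to 0.39 with 1 library left out. The median interaction of the replication members, -0.0018, changed sign to 0.000774 with DESeq2 size factors, 0.13 with library totals, 0.000885 with DESeq2 and 0.011 with the replicate block, and to 0.064, 0.12 and 0.24 without hindbrain whole replicate 2, hindbrain sorted replicate 1 and telencephalic sorted replicate 1 (-0.23 to 0.24 with 1 library left out). For none of these was the cause tested. Library totals as the scale moved the median of all genes by 0.09, 0.20, -0.30, -0.19 and 0.12 (log2) in the whole-tissue, sorted-cell, telencephalic sort, hindbrain sort and interaction comparisons. Over all genes, calls in whole tissue went from 909 to 1587 in the fit of 4 libraries, in sorted cells from 2383 to 1460 and with the sort in the hindbrain from 3472 to 2236. Interaction calls over all genes went from 211 to 441 with no low-count filter, 335 with DESeq2 and 337 with the replicate block. Precision is limited by 2 libraries per group and, for the thinnest member, by as few as 5 counts in a library.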

Other observations

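Other regulators of the cycle were 15 cyclins, kinases and transcription factors beside the 40 members. Between regions of sorted cells 5 of the 15 were higher in the hindbrain, against 9.06% of all genes tested, and 0 lower, against 6.12%. Myc, the growth-promoting transcription factor, had 0.945 and 1.18 CPM in telencephalic and 3.60 and 9.83 CPM in hindbrain sorted libraries, a log2 change of 2.67 ± 0.46 (edgeR adjusted p = 0.00182). In whole tissue it had 3.91 and 5.97 CPM in telencephalic and 5.04 and 5.15 CPM in hindbrain libraries (0.063 ± 0.42, edgeR adjusted p = 0.968). E2f7 and E2f8, repressors of the E2F family, changed by 0.85 ± 0.20 (0.0140) and 1.92 ± 0.48 (0.0174) in sorted cells, and E2f3, an activator, by 0.94 ± 0.23 (0.0148). Mycn, the neural relative of Myc, fell with the sort in both regions, at -2.89 ± 0.63 (edgeR adjusted p = 0.00605) in the telencephalon and -2.26 ± 0.54 (0.0114) in the hindbrain. Cdk2, the kinase of the G1/S step, rose in both, at 0.73 ± 0.18 (0.0136) and 0.67 ± 0.18 (0.0176).

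A further list held 9 tested genes of cell cycle families that serve in cells forming many cilia, as choroid plexus epithelial cells do. In sorted cells 3 rose in the telencephalon and 2 in the hindbrain, and 0 fell in either region by edgeR or DESeq2. The edgeR shares of all genes tested were 9.88% and 10.2% higher and 12.5% and 11.9% lower. Gmnc, which codes for a geminin relative at the top of the multiciliation programme, stood at 90.1 and 114 CPM in telencephalic whole, 86.1 and 90.4 in hindbrain whole, 141 and 141 in telencephalic sorted and 143 and 124 in hindbrain sorted libraries. It rose in both regions, at 0.47 ± 0.13 (edgeR adjusted p = 0.0234) and 0.60 ± 0.13 (0.00675). Mcidas, the multicilin gene, rose with the sort in the hindbrain, at 1.19 ± 0.22 (0.00245), and was higher in hindbrain than telencephalic sorted cells, at 0.93 ± 0.22 (0.0122). Deup1, of the structure that multiplies centrioles, was also higher there, at 0.97 ± 0.20 (0.00567), and Trp73, the p73 gene, was lower, at -0.54 ± 0.17 (0.0487). The median change of the list with the sort was 0.46 in the telencephalon and 0.25 in the hindbrain, against -1.39 and -0.94 for the mitotic members. The difference between the lists was not tested.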
